A study of Mus musculus with 12 samples.

Results

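Phosphoinositide 3-kinase (PI3K) adds a phosphate to a membrane lipid and makes PIP3, the docking site that brings AKT kinases and other signalling proteins to the membrane. In B cells, cross-linking of the B cell receptor switches on the class I enzymes, which pair a catalytic p110 subunit with a regulatory subunit, and p110δ is the leading catalytic form in lymphocytes. Active AKT phosphorylates FOXO transcription factors and the TSC complex, which turns off quiescence genes and releases the growth kinase mTORC1. The genes described here are 9 members of this pathway, taken by symbol from a named list: the catalytic subunit genes Pik3cd and Pik3ca, the regulatory subunit genes Pik3r1 and Pik3r5, the adaptor gene Pik3ap1, the inhibitor gene Pik3ip1, the class II kinase gene Pik3c2b, and the kinase genes Akt1 and Akt2. All 9 were among the 24046 symbols of the count tables, and all 9 passed the filter on low counts that left 12242 genes for testing.

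RNA came from sorted follicular (FO) B cells of the mouse spleen, in 4 groups of 3 libraries: Jmjd1c KO and WT cells, each at 0 h and after 2 h of anti-IgM, which binds the surface IgM of B cells and so cross-links their receptor. Jmjd1c encodes a member of the JmjC histone demethylase family, and the series title concerns its part in autoimmunity and in antibodies of heparin-induced thrombocytopenia. The 0 h and 2 h libraries share library numbers. Libraries of the same genotype and number are taken here as 1 animal, which gives 6 animals with 2 libraries each. The shared numbers alone do not show this. Every genotype and time has 1 library from each of 3 labelled batches. The replicate number used below is this batch number. The sources used here do not give the age, sex or strain of the mice, the part of Jmjd1c that was deleted or the cells in which it was deleted. Cells kept for 2 h without anti-IgM were not analysed here, so a change at 2 h cannot be told apart from an effect of time in culture.

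Total counts ranged from 5666013 to 14153396 per library. Expression is given as CPM, which are counts scaled to a common library total with TMM factors. A count of 0 allows up to 3 counts, or 0.183 to 1.02 CPM depending on the library, and covers counting error only; none of the 9 genes came near that floor. Jmjd1c was at 289 to 360 CPM in WT and 197 to 236 CPM in KO at 0 h, and at 270 to 322 CPM in WT and 199 to 213 CPM in KO at 2 h. Its libraries did not overlap between genotypes, but its differences of -0.56 ± 0.13 and -0.52 ± 0.13 (log2, SE) did not pass edgeR's quasi-likelihood test (adjusted p = 1 and adjusted p = 0.887). DESeq2 with the batch as a block called both (adjusted p = 1.42e-09 and adjusted p = 4.25e-07). KO 2 h replicate 1 stood apart, with 52.3% of its counts on the ribosomal RNA gene Rn45s and Mki67, a marker of dividing cells, at 530 CPM. WT 2 h replicate 1 had 24.8% of its counts on Rn45s, the 4 libraries of batch 2 between 12.9% and 15.5%, and the remaining libraries at most 1.09%. Mki67 fell into the same groups, at 138 CPM in WT 2 h replicate 1, 67 to 97 CPM in batch 2 and 8.8 to 14.5 CPM in the remaining libraries. The summed level of 7 B cell markers was 2590 to 5740 CPM, that of 9 T cell markers 77.3 to 230 CPM, and that of the myeloid, NK and erythroid or platelet lists at most 103 CPM each. KO 2 h replicate 1 had the lowest B cell sum, 2590 CPM, beside 2650 CPM in the lowest WT 2 h library. It also had the highest myeloid and erythroid or platelet sums, 102 and 103 CPM, against at most 67.8 and 48 CPM in the other groups. Its T cell and NK sums, 133 and 9.14 CPM, lay within the range of the other groups. The part of these sums in its values for the 9 genes was not tested. No marker of these lists that the files hold was at 0 in every library. The B cell markers summed to 4350 to 5740 CPM at 0 h and 2590 to 4400 CPM at 2 h. Of these 7, 3 were called lower in WT and 5 in KO, against 9.06% and 13% of all genes. Their part in the results on the 9 genes was not tested. The T cell markers summed to 77.3 to 139 CPM at 0 h and 133 to 230 CPM at 2 h, but the list's median difference was -0.080 in WT and -0.0098 in KO (log2). Lck and Cd5, chosen here after their values were seen, were the only 2 of the 9 T cell markers called, with Lck at a mean of 51.4 CPM at 0 h and 129 CPM at 2 h in WT and Cd5 at 8.38 and 21.8 CPM. Among all genes 10.7% were called higher in WT and 14.1% in KO. In bulk RNA, fewer cells that express a gene and less RNA per cell cannot be told apart.

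The 9 genes were first ordered by level. To compare genes, CPM was divided by the total exon length of each gene in the GENCODE M21 annotation (CPM per kb). In resting WT cells Pik3cd, which encodes p110δ, was highest at 104 ± 4.86 CPM per kb (SD, n = 3), and Pik3ca, which encodes the ubiquitous p110α, was at 19.7 ± 1.77 CPM per kb. Pik3ap1, which encodes the adaptor BCAP, followed Pik3cd at 36.2 ± 4.50 CPM per kb, and Akt1 was at 30.4 ± 2.46 CPM per kb. Next came Pik3c2b at 26.9 ± 3.14, Pik3ip1 at 25.6 ± 2.37, Akt2 at 17.5 ± 1.68 and Pik3r1 at 16.0 ± 2.37 CPM per kb. Pik3r5, which encodes the p101 subunit of the p110γ enzyme, was lowest at 9.24 ± 1.46 CPM per kb. Neighbours in this order overlapped over libraries for Akt1 and Pik3c2b, Pik3c2b and Pik3ip1, Pik3ca and Akt2, and Akt2 and Pik3r1, and the other neighbours did not. In resting KO cells the order of means was the same. Using the longest coding transcript in place of all exons put Pik3ip1 ahead of Pik3c2b in both genotypes, and ahead of Akt1 too in KO.

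After 2 h in WT cells the order had changed at both ends. Pik3ap1 stood at 108 ± 23.4 CPM per kb, beside Pik3cd at 105 ± 21.98 CPM per kb, and the libraries of these genes overlapped; by the longest coding transcript Pik3cd was still ahead. Pik3c2b was at 6.49 ± 1.16 CPM per kb, next to Pik3r5 at 5.57 ± 1.44 CPM per kb, again with overlap. Akt1 was at 40.2 ± 4.77 and Akt2 at 19.0 ± 2.04 CPM per kb, with no overlap between the kinases. In KO cells at 2 h Pik3ap1 spread from 29.3 to 119 CPM per kb and Pik3cd from 53.3 to 116 CPM per kb.

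**Figure D1:**
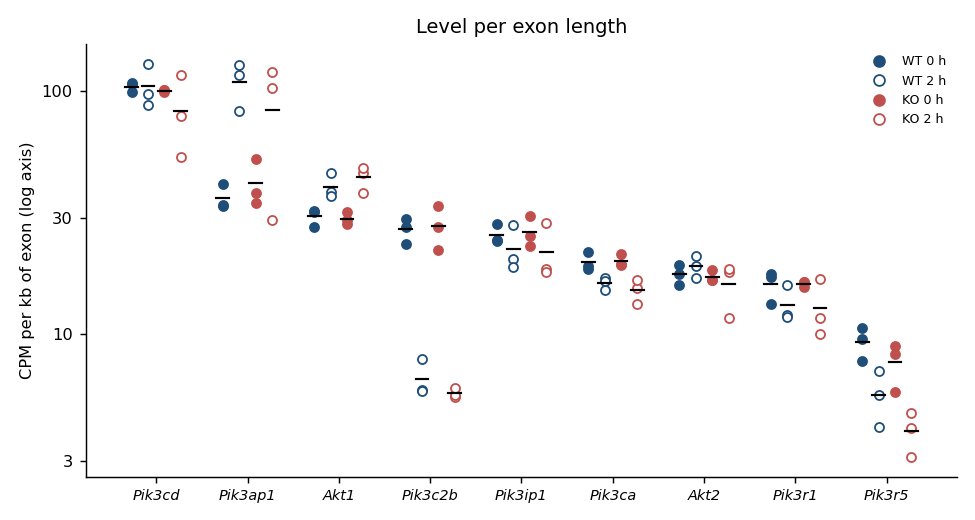
Level of each gene as CPM per kb of exon (vertical log axis) for the 4 groups, with 1 point per library and a bar at the mean of 3 libraries. Pik3cd lies near 100 CPM per kb in resting cells, Pik3ap1 reaches it at 2 h, and Pik3c2b comes close to Pik3r5.

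Comparing 2 h with 0 h asks how these genes differ after 2 h of anti-IgM, which cannot be told apart here from time in culture. In WT cells 2 of the 9 rose (Pik3ap1 and Akt1) and 2 fell (Pik3c2b and Pik3r5) at an adjusted p under 0.05 in edgeR's quasi-likelihood test over all genes. Of all 12242 genes tested, 10.7% were called higher and 9.06% lower. In KO cells 1 rose (Akt1) and 3 fell (Pik3c2b, Pik3r5 and Pik3ca), against 14.1% called higher and 13% called lower among all genes. By the simpler count of groups whose libraries did not overlap, 3 genes were lower at 2 h in WT (Pik3c2b, Pik3r5 and Pik3ca) and 2 higher (Pik3ap1 and Akt1), against 22.7% and 21.3% of all genes. In KO the same 3 were lower and Akt1 alone was higher, against 19.6% and 17.9%. The WT and KO comparisons use separate libraries, but each holds libraries taken as pairs from the same animals. With the animal as a block, 2 of the 9 were called in WT, where Akt1 (adjusted p = 0.0714, edgeR) and Pik3r5 (adjusted p = 0.0543) were lost, against 19.7% of all genes, and 3 in KO, where Pik3ca was lost (adjusted p = 0.0598), against 26.6%. With both batch 1 libraries of 2 h left out, 6 of the 9 were called in each genotype, while the share of all genes called also went up, to 15% higher and 13.9% lower in WT and to 16.3% higher and 15% lower in KO. Leaving out any 1 library of the comparison left 1 to 3 called in WT, fewest without WT 0 h replicate 1 or 3, and 2 to 5 in KO, fewest without KO 0 h replicate 3. The whole table moved too, with fewer of all genes called in each of these WT fits, as given in the last section. In KO each fit without 1 library called a number of all genes within 1.5 times of the 3316 of the main fit. Without KO 2 h replicate 1, 17.1% of all genes were called higher and 13.7% lower in KO.

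**Figure D2:**
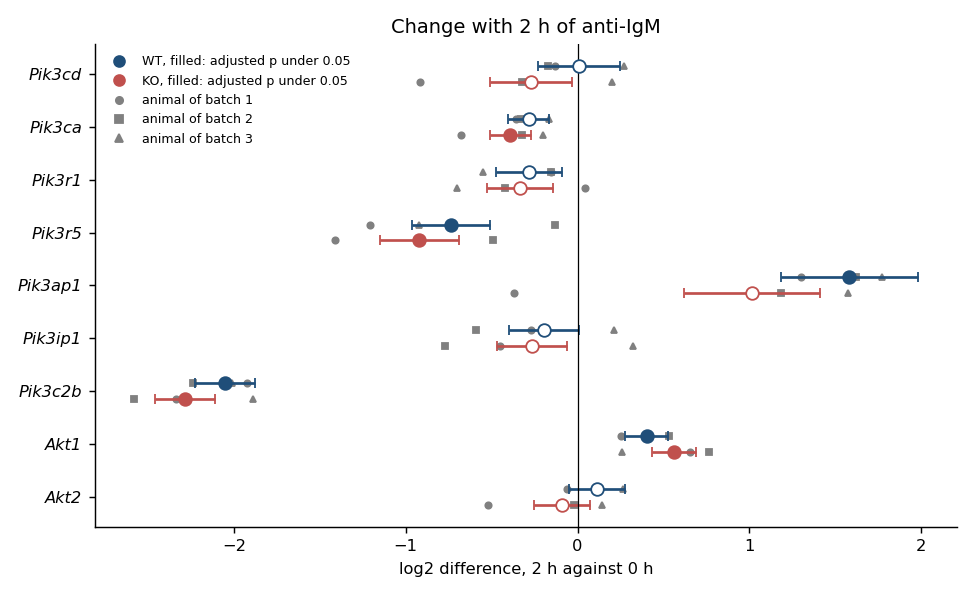
Log2 difference between 2 h and 0 h (horizontal axis) for the 9 genes in WT and KO cells, with bars of 1 SE and filled points where the adjusted p is under 0.05; grey symbols are the 6 animals by batch. Pik3c2b lies near -2 in both genotypes, Akt1 to the right of 0 in all 6 animals, and Pik3ap1 has 1 KO animal left of 0.

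The promoters of 3 of the 4 genes called in WT are shown because these genes moved in opposite directions in the same cells. Each is the stretch of 250 bases before the first base of the transcript in RefSeq's annotation of GRCm38.p6, the assembly behind mm10, read 5′ to 3′ on the gene's strand, with motif matches in capitals. The windows are chr19:41385103-41385352 on the minus strand for Pik3ap1, chr12:112674885-112675134 on the minus strand for the first of 2 RefSeq starts of Akt1, and chr11:68431875-68432124 on the plus strand for Pik3r5. The Pik3c2b window (chr1:133045762-133046011, plus strand) is not shown, since 156 of its 250 bases lie in an exon of another annotated Pik3c2b transcript that starts upstream.
Pik3ap1: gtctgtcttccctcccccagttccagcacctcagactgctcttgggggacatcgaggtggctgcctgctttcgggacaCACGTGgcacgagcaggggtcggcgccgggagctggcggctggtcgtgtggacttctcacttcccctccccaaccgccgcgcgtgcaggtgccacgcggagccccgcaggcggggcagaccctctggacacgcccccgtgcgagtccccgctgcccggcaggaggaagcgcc
Akt1: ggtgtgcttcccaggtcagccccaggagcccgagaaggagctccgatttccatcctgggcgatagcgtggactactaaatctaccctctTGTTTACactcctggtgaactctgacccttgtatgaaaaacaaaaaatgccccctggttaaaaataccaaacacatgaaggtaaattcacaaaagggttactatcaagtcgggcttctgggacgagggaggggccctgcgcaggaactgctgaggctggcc
Pik3r5: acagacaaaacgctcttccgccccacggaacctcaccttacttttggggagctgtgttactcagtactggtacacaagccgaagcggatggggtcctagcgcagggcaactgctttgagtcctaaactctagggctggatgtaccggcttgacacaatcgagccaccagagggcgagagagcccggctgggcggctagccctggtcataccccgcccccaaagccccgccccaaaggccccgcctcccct

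Both strands of each window were searched for a FOXO motif (TGTTTAC), an E-box (CACGTG), an AP-1 motif (TGANTCA), a cyclic AMP response element (TGACGTCA), an EGR motif (GCGTGGGCG) and a kappaB motif. The Pik3ap1 window held the E-box, 172 bases before the start, as did 6.02% of 32851 RefSeq windows of the same length. The window of the first Akt1 start held the FOXO motif, 161 bases before the start, as did 3.17% of them. The window of the second Akt1 start (chr12:112674277-112674526) held none of the 6 motifs, and its GC content was 78.4%. The Pik3c2b and Pik3r5 windows held none of the 6 motifs. Among the members not shown, Pik3ca had an AP-1 match (TGAGTCA) 97 bases before its RefSeq start, as did 6.75% of windows, and the windows of the other 4 genes had no match. A stretch just after that Pik3ca start was in no GENCODE transcript of the gene. All 250 bases of the Pik3ip1 window lie in annotated Pik3ip1 exon sequence. The shares for the response element, the EGR motif and the kappaB motif were 1.55%, 0.536% and 1.21%. GC content was 67.6% for Pik3c2b, 71.2% for Pik3ap1, 61.6% for Pik3r5 and 52.0% for the first Akt1 start, against a median of 52.4% over all windows. A match is a string of letters and not a measured binding site.

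Pik3cd (chromosome 4, 149649168 to 149702566, minus strand, GRCm38) encodes the catalytic subunit p110δ. It was at 565, 523 and 571 CPM in WT 0 h replicates 1 to 3, and at 516, 465 and 688 CPM in WT 2 h. The WT values at 2 h lay on both sides of those at 0 h, and the difference of 0.0084 ± 0.24 (log2, SE) did not pass the test (adjusted p = 0.988, edgeR). In KO it was at 536, 525 and 538 CPM at 0 h and at 284, 420 and 619 CPM at 2 h, a difference of -0.27 ± 0.24 (adjusted p = 0.411). Its spread was 1.31% of the mean at 0 h in KO and 38.3% at 2 h, and 4.68% and 21.0% in WT. In both genotypes the 2 h library was below its own 0 h library in batches 1 and 2 and above it in batch 3. Without KO 2 h replicate 3 the KO difference was -0.60 and was called (adjusted p = 0.0471).

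Pik3ca (chromosome 3, 32397065 to 32466112, plus strand) encodes p110α. In WT it was at 197, 172 and 168 CPM at 0 h and at 154, 137 and 150 CPM at 2 h, and in KO at 192, 175 and 174 CPM at 0 h and at 120, 140 and 151 CPM at 2 h. Every 2 h library was below every 0 h library of its genotype. The difference was -0.28 ± 0.12 in WT, which did not pass edgeR's test (adjusted p = 0.117), and -0.39 ± 0.12 in KO, which did (adjusted p = 0.0295). Within animals the difference ran from -0.68 to -0.16, with 6 of 6 below 0. The KO call was lost under 8 of 16 alternatives: on leaving out any of 5 of the 6 KO libraries (adjusted p from 0.0534 to 0.108), with no filter (adjusted p = 0.0761), with only the KO libraries (adjusted p = 0.11) and in the fit blocked by animal (adjusted p = 0.0598). In WT 3 of 16 alternatives called it, namely DESeq2 without (adjusted p = 0.0447) and with the batch block (adjusted p = 0.0386) and the fit without both 2 h libraries of batch 1 (adjusted p = 0.0353).

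Pik3r1 (chromosome 13, 101680761 to 101768217, minus strand) encodes p85α, the main class IA regulatory subunit, with its shorter forms p55α and p50α. It was at 133, 100 and 129 CPM in WT 0 h and at 120, 90.2 and 88.2 CPM in WT 2 h. KO cells had 123, 117 and 123 CPM at 0 h and 127, 87.5 and 75.5 CPM at 2 h. The groups overlapped in both genotypes, and the differences of -0.28 ± 0.19 and -0.34 ± 0.19 did not pass edgeR's test (adjusted p = 0.354 and adjusted p = 0.210). The exception among animals was KO batch 1, at 0.045 against -0.70 to -0.15 in the other 5. Without KO 2 h replicate 1 the KO difference was -0.57 (adjusted p = 0.0176), and with both batch 1 libraries of 2 h left out it was -0.48 in WT (adjusted p = 0.0197) and -0.61 in KO (adjusted p = 0.0056).

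Pik3r5 (chromosome 11, 68432125 to 68497849, plus strand) encodes p101, which links p110γ to G protein-coupled receptors. In WT it was at 41.5, 33.5 and 46.2 CPM at 0 h and at 17.98, 30.6 and 24.4 CPM at 2 h. In KO it was at 36.0, 25.1 and 39.0 CPM at 0 h and at 13.5, 17.9 and 20.5 CPM at 2 h, the lowest library resting on 40 counts. The groups did not overlap in either genotype. The log2 difference was -0.74 ± 0.23 in WT (adjusted p = 0.0395, edgeR) and -0.92 ± 0.23 in KO (adjusted p = 0.0123), a level of 0.60 and 0.53 times that at 0 h, and both passed the test. Batch 2 moved least, at -0.13 in the WT animal and -0.49 in the KO animal, while the other 4 animals lay between -1.41 and -0.92. The WT call was lost on leaving out replicate 1 or 3 of either time (adjusted p from 0.107 to 0.145) and in the fit blocked by animal (adjusted p = 0.0543), and the KO call on leaving out KO 0 h replicate 3 (adjusted p = 0.0517).

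Pik3ap1 (chromosome 19, 41272541 to 41385102, minus strand) encodes BCAP, an adaptor that binds the p85 subunit and recruits PI3K to receptor complexes. In WT it was at 150, 186 and 152 CPM at 0 h and at 369, 572 and 518 CPM at 2 h, with no overlap. It rose by 1.58 ± 0.40 on the log2 scale (adjusted p = 0.0165, edgeR), a 2.996-fold difference with a 95% interval from 1.63 to 5.5. The KO values were 170, 236 and 154 CPM at 0 h and 131, 535 and 459 CPM at 2 h. KO 2 h replicate 1 was the only 2 h library below its own 0 h library, by 0.37 on the log2 scale, and it also had the highest Rn45s share and Mki67 level. The KO difference of 1.01 ± 0.40 did not pass the test with that library (adjusted p = 0.0784) and passed without it, at 1.42 (adjusted p = 0.000597). The WT call was lost on leaving out replicate 1 or 3 at 0 h, or replicate 2 at 2 h (adjusted p from 0.0669 to 0.0685).

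Pik3ip1 (chromosome 11, 3319241 to 3342971, plus strand) encodes a transmembrane protein that binds p110 and restrains it. It was at 71.9, 83.6 and 71.1 CPM in WT 0 h and at 59.7, 55.5 and 82.4 CPM in WT 2 h. KO cells had 74.5, 90.0 and 67.5 CPM at 0 h and 54.5, 52.8 and 84.3 CPM at 2 h. Batches 1 and 2 were lower at 2 h and batch 3 higher in both genotypes, the same split as for Pik3cd. The differences of -0.19 ± 0.20 in WT (adjusted p = 0.579, edgeR) and -0.26 ± 0.20 in KO (adjusted p = 0.352) did not pass the test. An exon stretch of 91 bases, 3.08% of its exon length, is shared with Gm12592 on the opposite strand, and the sources used here do not say whether counting used strand.

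Pik3c2b (chromosome 1, 133045672 to 133108691, plus strand) encodes PI3K-C2β, a class II enzyme that makes lipids other than PIP3 and is known as a brake on mTORC1. It changed most among the 9 genes. In WT it was at 235, 218 and 186 CPM at 0 h and at 62.1, 46.3 and 46.1 CPM at 2 h. In KO it was at 219, 266 and 176 CPM at 0 h and at 43.3, 44.5 and 47.4 CPM at 2 h. The lowest 0 h library was thus far above the highest 2 h library in either genotype. The log2 difference was -2.05 ± 0.17 in WT (adjusted p = 5.83e-05, edgeR) and -2.28 ± 0.18 in KO (adjusted p = 2.39e-05), both past the test. These are 4.14-fold and 4.87-fold lower levels, and 17th and 16th by p among the 12242 genes. Within animals the difference ran from -2.58 to -1.89. It was called under each of the 16 alternatives run in each genotype, with values from -2.25 to -1.97 in WT and from -2.43 to -2.13 in KO. An annotated antisense gene, Gm28609, overlaps its span but shares 0 exon bases with it.

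Akt1 (chromosome 12, 112653821 to 112674884, minus strand) and Akt2 (chromosome 7, 27591552 to 27640826, plus strand) encode the AKT kinases that PIP3 recruits. Akt1 was at 86.0, 85.1 and 74.1 CPM in WT 0 h and at 103, 123 and 98.9 CPM in WT 2 h. The KO values were 78.6, 75.8 and 85.2 CPM at 0 h and 124, 129 and 102 CPM at 2 h. Every 2 h library was above every 0 h library of its genotype. Akt1 rose by 0.40 ± 0.13 in WT (log2, adjusted p = 0.0422, edgeR) and by 0.56 ± 0.13 in KO (adjusted p = 0.00728), 1.32-fold and 1.48-fold, with 6 of 6 animals between 0.26 and 0.77. The WT call was lost when any of the 6 WT libraries was left out (adjusted p from 0.0597 to 0.189), in the unfiltered fit (adjusted p = 0.0833) and in the fit blocked by animal (adjusted p = 0.0714). The KO call held under each of 16 alternatives (adjusted p from 0.000125 to 0.0424).

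Akt2 was at 84.9, 92.7 and 76.5 CPM in WT 0 h and at 81.5, 101 and 91.9 CPM in WT 2 h. KO cells had 80.1, 88.2 and 80.6 CPM at 0 h and 55.9, 86.9 and 88.8 CPM at 2 h. The groups overlapped, and KO 2 h replicate 1 was the lowest of the 12 libraries. The differences of 0.11 ± 0.16 in WT (adjusted p = 0.692, edgeR) and -0.090 ± 0.16 in KO (adjusted p = 0.707) did not pass the test. The 95% interval of the fold was 0.846 to 1.38 in WT and 0.734 to 1.2 in KO. Whether Akt1 and Akt2 differ in their response was not tested.

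**Figure D3:**
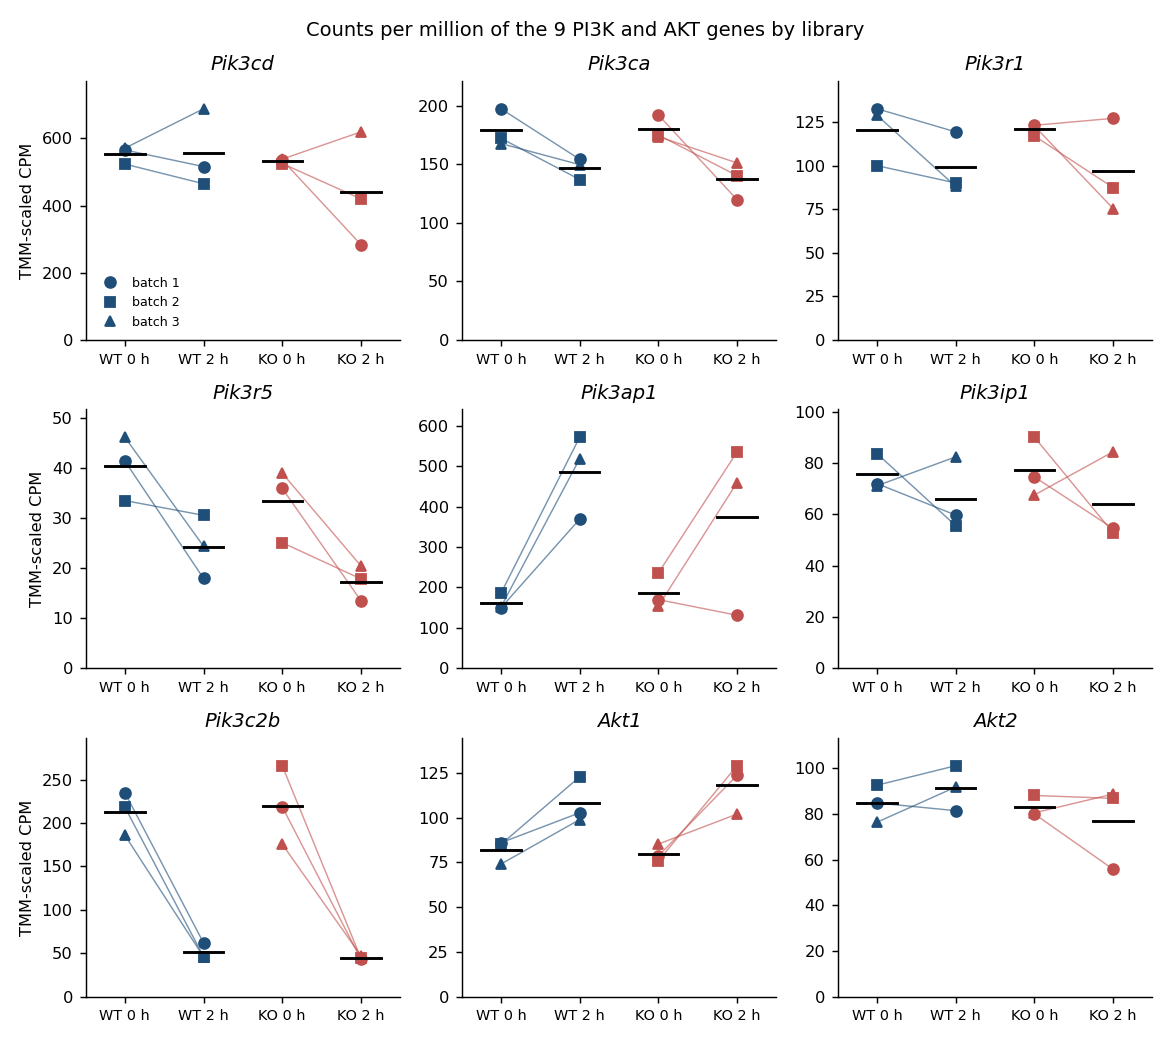
TMM-scaled CPM (vertical axes, each from 0) of the 9 genes in every library, with lines joining the 0 h and 2 h libraries of an animal, symbols for the batch and black bars at group means. Pik3c2b falls from 176 to 266 CPM to 43.3 to 62.1 CPM, and in the Pik3ap1 panel the circle of KO batch 1 lies apart from the other 2 h libraries.

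Comparing KO with WT asks whether Jmjd1c loss alters expression of the pathway. At 0 h none of the 9 genes passed edgeR's test (adjusted p = 1 for each), against 0% of all genes, with 91 genes at an unadjusted p under 0.05 and 1 called by DESeq2. Those 91 are fewer than a share of 0.05 of the 12242 genes, the share expected on average if no gene differed. The p values of this fit thus ran high, and a missing call is weak evidence of no difference. Pik3r5 had the largest difference at 0 h, -0.27 ± 0.22 (log2, SE), with a 95% interval of the KO to WT ratio from 0.591 to 1.16. The other 8 lay between -0.054 and 0.20. For Akt1 the interval was 0.809 to 1.18, for Pik3ca 0.842 to 1.2, for Akt2 0.767 to 1.25 and for Pik3cd 0.673 to 1.38. For Pik3ap1 it was 0.634 to 2.08, so ratios within that range are compatible with these libraries. These intervals are not adjusted for the number of genes and are not limits of detection. The KO and WT libraries of the 9 genes overlapped in every case, whereas 2.9% of all genes were lower and 2.95% higher in KO with no overlap.

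At 2 h none of the 9 passed the test either (adjusted p from 0.887 to 0.982), against 0% of all genes, with 640 at an unadjusted p under 0.05 and 2 called by DESeq2. Pik3r5 again had the largest difference, -0.46 ± 0.23 (adjusted p = 0.887, edgeR), and the KO animal was below the WT animal in 3 of 3 batches at both times. Its libraries nevertheless overlapped between genotypes. Pik3ap1 differed by -0.37 ± 0.39 and Pik3cd by -0.33 ± 0.24. Within batches Pik3ap1 was at -1.49, -0.095 and -0.17 for batches 1 to 3, and Pik3cd at -0.86, -0.15 and -0.15, so batch 1 carried most of each value. Akt2 was at -0.55, -0.22 and -0.049. Without KO 2 h replicate 1 the Pik3ap1 difference was 0.033. The part that the high Rn45s share or Mki67 level of this library has in these values was not tested. No gene of the 9 had groups without overlap, against 3.6% of all genes lower in KO and 4.62% higher.

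The difference between the KO and WT responses was tested as an interaction. None of the 9 passed (adjusted p = 1 for each), against 0% of all genes, with 40 genes at an unadjusted p under 0.05 and 0 called by DESeq2. Here too, fewer genes lay under 0.05 than the share of 0.05 expected on average if no gene differed. The largest value was -0.57 ± 0.55 for Pik3ap1, with a 95% interval of the ratio of responses from 0.291 to 1.56. For Pik3c2b it was -0.23 ± 0.24, from 0.592 to 1.22, and for Akt1 0.16 ± 0.18, from 0.852 to 1.46. A call in one genotype and not in the other, as for Pik3ca and Pik3ap1, is therefore not a shown difference between genotypes.

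**Figure D4:**
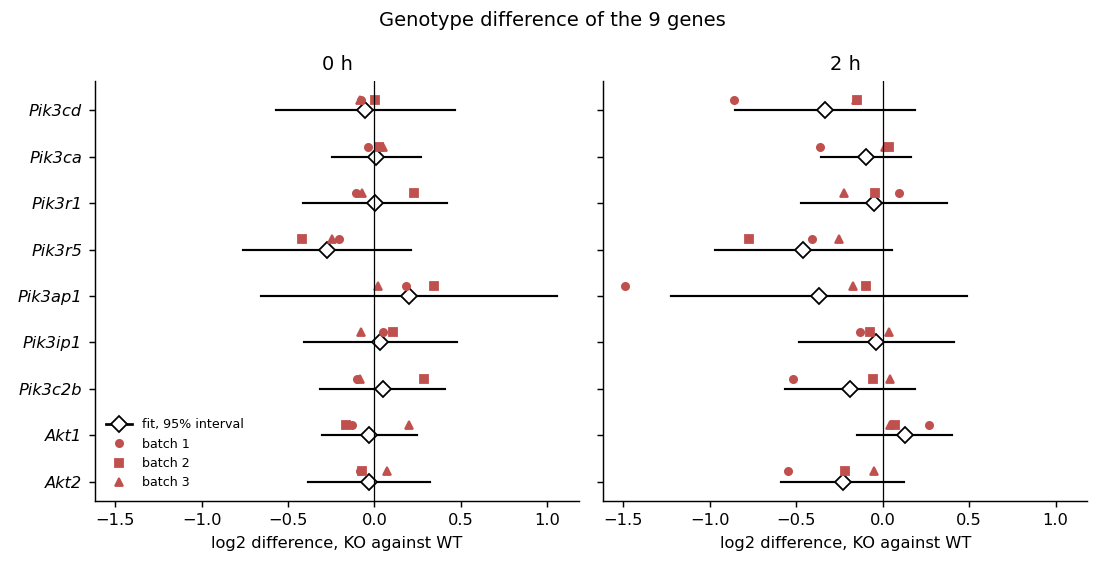
Log2 difference between KO and WT (horizontal axes) for the 9 genes at 0 h and 2 h, with diamonds and bars for the fitted value and its 95% interval and red symbols for the 3 batches. Every interval includes 0, and at 2 h the batch 1 symbol lies lowest for Pik3ap1 at -1.49 and for Pik3cd at -0.86.

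The rest of the pathway was described with a list of 68 further genes, of which 66 were tested. In WT 5 rose and 9 fell (7.58% and 13.6%, against 10.7% and 9.06% of all genes), and the median difference was -0.21 on the log2 scale, beside 0.0091 over all genes. In KO 3 rose and 17 fell (4.55% and 25.8%, against 14.1% and 13%), with a median of -0.30 beside 0.043. Without both 2 h libraries of batch 1, 6 rose and 21 fell in WT and 5 rose and 22 fell in KO, with medians of -0.26 and -0.31, and all genes were called at 15% and 13.9% in WT and 16.3% and 15% in KO. Without KO 2 h replicate 1 alone, 7 rose and 20 fell in WT, whose libraries were unaltered, against 15.1% and 13.8% of all genes, and 6 rose and 20 fell in KO, against 17.1% and 13.7%. With the batch as a block, 6 rose and 14 fell in WT, against 12.8% and 12.1%, and 3 rose and 20 fell in KO, against 15.9% and 16.2%. The counts of the separate lists below are also given without both 2 h libraries of batch 1 where they move by over 1.5 times. Each is to be read beside the shares of all genes in the same fit, given in this paragraph. No gene of the list passed edgeR's test between KO and WT at either time or in the interaction.

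Among the 9 class I subunit genes tested, 0 rose and 2 fell in WT, and 0 rose and 3 fell in KO, with medians of -0.28 and -0.34. All genes were called at 10.7% higher and 9.06% lower in WT and at 14.1% and 13% in KO. In the fit without both 2 h libraries of batch 1, 5 fell in each genotype, with medians of -0.48 and -0.75, and without KO 2 h replicate 1 alone 4 fell in each. Pik3r2, which encodes p85β, went from 37.5 ± 3.91 to 23.3 ± 3.69 CPM in WT (SD, n = 3), a fall of 0.69 ± 0.15 (adjusted p = 0.00689, edgeR), and fell by 0.75 ± 0.15 in KO (adjusted p = 0.00364). Pik3cg, the p110γ partner of Pik3r5, was at -0.87 ± 0.30 in WT and did not pass the test (adjusted p = 0.0586). Of 4 tested class II and III genes, Pik3c2b alone fell in WT, and Pik3c3, the class III kinase VPS34, also fell in KO, by 0.49 ± 0.12 (adjusted p = 0.0107). In WT Pik3c3 was at -0.23 ± 0.12 (adjusted p = 0.216, edgeR). Pik3c2a, the other class II gene tested, was at -0.50 ± 0.31 in WT (adjusted p = 0.306). Leaving out the 2 h libraries of batch 1 gave 2 fallen of these 4 in WT and 3 in KO.

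Of 9 adaptors and recruiters, 3 rose and 1 fell in WT, and 0 rose and 1 fell in KO, with medians of 0.56 and 0.86. Among all genes 10.7% rose and 9.06% fell in WT, and 14.1% and 13% in KO. Cr2, a complement receptor of B cells, rose by 1.004 ± 0.31 in WT (adjusted p = 0.0387, edgeR). In KO it was at 0.86 ± 0.31 and did not pass the test (adjusted p = 0.058). The 6 marginal zone markers, a sum that includes Cr2 itself, were at 428 to 535 CPM at 0 h and 777 to 1120 CPM at 2 h. Of these 6, 2 were called higher and 1 lower in each genotype, beside the same shares of all genes. Their list medians were 0.79 in WT and 0.78 in KO. Whether marginal zone cells have a part in the Cr2 result was not tested. Irs2, an insulin receptor substrate that binds p85, rose by 1.83 ± 0.53 in WT (adjusted p = 0.0320). In KO it was at 1.35 ± 0.53 and did not pass edgeR's test (adjusted p = 0.0788). Without both 2 h libraries of batch 1 the count was 3 rose and 2 fell in WT, and 3 rose and 1 fell in KO, and the list's median turned to -0.29 in WT and was 0.065 in KO. It was 0.10 in KO without KO 2 h replicate 1, and 0.17 in WT with the batch as a block.

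Of 10 antagonists, 0 rose and 1 fell in WT, and 1 rose and 3 fell in KO, and without both 2 h libraries of batch 1, 1 rose and 2 fell in WT. The shares over all genes were 10.7% and 9.06% in WT, 14.1% and 13% in KO, and 15% and 13.9% in WT without those libraries. Inpp5k, a 5-phosphatase of phosphoinositides, fell by 0.99 ± 0.22 in WT (adjusted p = 0.00857, edgeR) and fell by 1.21 ± 0.22 in KO (adjusted p = 0.0023). Phlpp2, a phosphatase of AKT, fell by 0.88 ± 0.18 in KO (adjusted p = 0.00471), where Trib3, a pseudokinase that binds AKT, rose by 1.46 ± 0.42 (adjusted p = 0.0237). In WT they moved the same way without passing edgeR's test. Phlpp2 was at -0.48 ± 0.18 (adjusted p = 0.0812) and Trib3 at 1.28 ± 0.42 (adjusted p = 0.0512) there. Inppl1, which encodes the phosphatase SHIP2, had the smallest unadjusted p of the antagonists between KO and WT at 0 h, at -1.04 ± 0.54 (adjusted p = 1), with WT at 42.5 ± 35.7 CPM and KO at 20.8 ± 2.55 CPM.

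Of 10 AKT kinases and activators, 1 rose and 1 fell in WT, and 1 rose and 2 fell in KO, and without both 2 h libraries of batch 1, 1 rose and 4 fell in WT. All genes were called at 10.7% and 9.06% in WT, 14.1% and 13% in KO, and 15% and 13.9% in WT without those libraries. Sgk3, a kinase related to AKT that acts downstream of PI3K, fell by 0.89 ± 0.16 in WT (adjusted p = 0.00306, edgeR) and fell by 0.90 ± 0.16 in KO (adjusted p = 0.00227). Of 16 AKT substrates and mTORC1 genes, 2 rose and 3 fell in WT, and 2 rose and 4 fell in KO, and without those libraries 3 rose and 5 fell in WT. Foxo1, the main FOXO factor of B cells, went from 345 ± 11.1 to 194 ± 27.4 CPM in WT and fell by 0.83 ± 0.15 (adjusted p = 0.00307), and Gsk3b, a kinase that AKT inhibits, fell by 0.70 ± 0.096 (adjusted p = 0.000661). Rheb, the GTPase that activates mTORC1, rose by 0.35 ± 0.091 in WT (adjusted p = 0.0183) and by 0.55 ± 0.091 in KO (adjusted p = 0.00131).

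Of 8 PIP3-binding effectors, 1 rose and 2 fell in WT, and 0 rose and 4 fell in KO, and without both 2 h libraries of batch 1, 0 rose and 4 fell in WT. The shares over all genes were 10.7% and 9.06% in WT, 14.1% and 13% in KO, and 15% and 13.9% in WT without those libraries. Plekha2, which encodes the adaptor TAPP2, whose PH domain binds a breakdown product of PIP3, went from 637 ± 22.7 to 240 ± 38.4 CPM in WT and fell by 1.41 ± 0.15 (adjusted p = 0.000176, edgeR) and fell by 1.72 ± 0.15 in KO (adjusted p = 4.62e-05). Cyth1, a PIP3-binding exchange factor for ARF GTPases, fell by 0.70 ± 0.17 in WT (adjusted p = 0.0135) and fell by 1.19 ± 0.17 in KO (adjusted p = 0.000657). Between KO and WT at 2 h it was at -0.52 ± 0.17 (adjusted p = 0.887). Tec, a kinase recruited by PIP3, rose by 0.58 ± 0.18 in WT (adjusted p = 0.0411). In KO it was at 0.33 ± 0.18 and did not pass edgeR's test (adjusted p = 0.185). Of 9 phosphoinositide supply kinases 0 rose and 0 fell in WT, while in KO Pip4k2a fell by 0.58 ± 0.14 (adjusted p = 0.00894) and 0 rose. In WT Pip4k2a was at -0.35 ± 0.13 (adjusted p = 0.0946, edgeR). Without both 2 h libraries of batch 1, 1 of these kinase genes fell in WT and 2 in KO.

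Of 14 tested genes known to depend on FOXO factors, 2 rose and 7 fell in WT, and 1 rose and 10 fell in KO, with medians of -0.70 and -0.91. All genes were called at 10.7% higher and 9.06% lower in WT and at 14.1% and 13% in KO. Without both 2 h libraries of batch 1, 2 rose and 10 fell in each genotype, with medians of -0.81 and -0.91. In that fit 15% of all genes rose and 13.9% fell in WT, and 16.3% and 15% in KO. Klf2, a quiescence and homing factor, was at 351 ± 65.1 CPM at 0 h and 109 ± 16.1 CPM at 2 h in WT. Cdkn1b, which encodes the cell cycle inhibitor p27, fell by 1.11 ± 0.18 in WT (adjusted p = 0.00142, edgeR) and fell by 1.36 ± 0.18 in KO (adjusted p = 0.000342). Gadd45a, a growth arrest gene, fell by 0.78 ± 0.12 in WT (adjusted p = 0.00144), while its relative Gadd45b rose by 1.09 ± 0.19 (adjusted p = 0.00223). Irs2 stands in this list as well as among the adaptors.

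**Figure D5:**
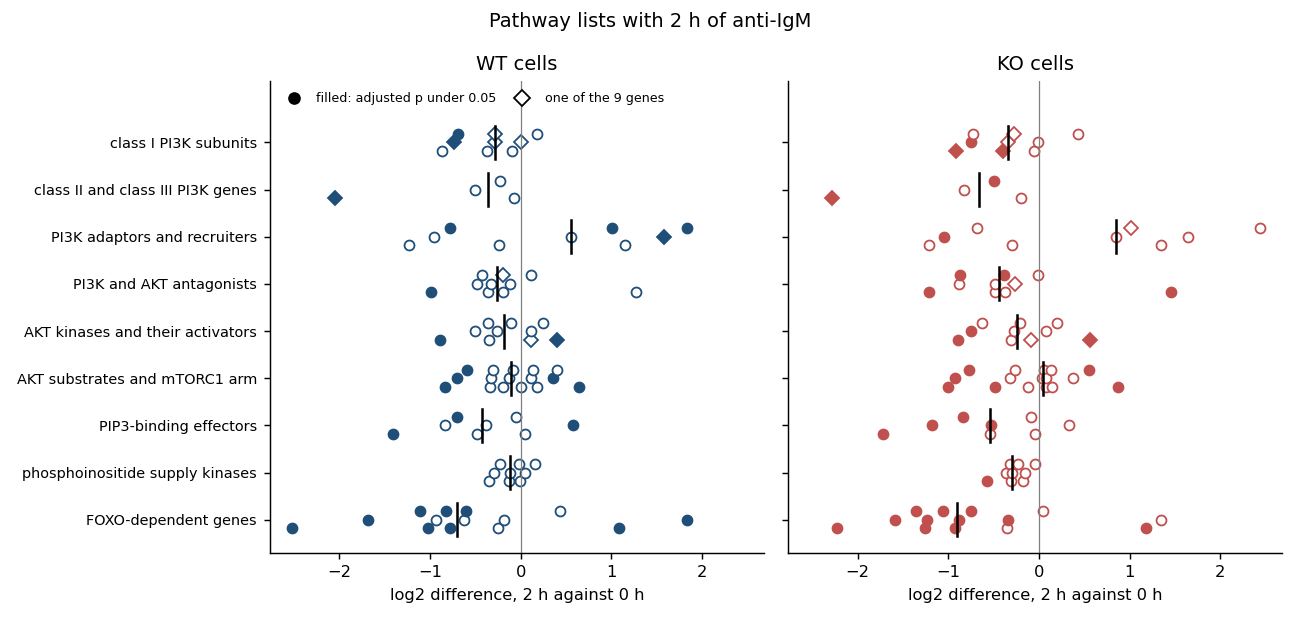
Log2 difference between 2 h and 0 h (horizontal axes) of the tested genes of 9 pathway lists in WT and KO cells; filled symbols have an adjusted p under 0.05, diamonds are among the 9 genes and bars are list medians. The FOXO-dependent list has the lowest median, -0.70 in WT and -0.91 in KO, and the adaptor list has medians of 0.56 and 0.86, which were -0.29 and 0.065 without both 2 h libraries of batch 1.

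The genes whose log2 CPM was most like that of each member over the 12 libraries were found by Spearman's rho among 8411 genes whose log2 CPM averaged 3 or more. The libraries fall into 2 times and share batches and depth, so rho is a description only. Pik3c2b was most like Atf7ip (rho = 0.979), Mtmr3 and Rbm5 (0.972 each), and Pik3ca most like Prkd2 and Vhl (0.986 each) and Irf2 (0.979). Pik3ap1 was most like Zbtb11 (0.986), Fnbp1 and Igf2r (0.979 each), Pik3r5 most like Mib2 (0.986), and Pik3r1 most like Csrp2 (0.986). Akt1 was most like Gadd45gip1 (0.979), Akt2 most like Rundc1 (0.923), Pik3cd most like Vps41 (0.944) and Pik3ip1 most like Txndc16 (0.916). Among the 9 genes themselves the highest rho was 0.937, between Pik3ca and Pik3c2b, and the lowest were -0.881, between Pik3r1 and Pik3ap1, and -0.825, between Pik3c2b and Akt1.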

How the data were processed

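The authors deposited raw, whole-number read counts for each gene symbol, with 1 file per library, from poly(A) RNA made into libraries with an NEBNext Ultra kit, per the labels' protocols. Reads were aligned to mm10 with STAR, per the submitters' processing notes. The sources used here do not give the annotation, the counting tool, or how it treated strand and multi-mapping reads. From the deposited counts, filterByExpr on the 4 groups kept 12242 genes, and TMM scaling and edgeR's quasi-likelihood test were applied with 1 mean per group over all 12 libraries (edgeR 4.0.16, R 4.3.3). P values are two-sided and adjusted by Benjamini-Hochberg over all genes tested, called under 0.05, and SE comes from the F statistic. CPM was computed here, with Rn45s kept in library sizes. The 3 libraries of a group are taken as separate animals, and the 0 h and 2 h libraries of the same genotype and number as a pair. The main time test does not use this pairing, and the fit with the animal as a block does. On simulated data of the WT time comparison (12242 genes), 19.6% of 107 genes changed by 1 on the log2 scale and 95.7% of 93 changed by 2 were recovered, with 2 false calls. The simulation gave every gene the same dispersion (spread between libraries), held no batch or animal effect and changed far fewer genes than were called in the data. Its shares therefore do not measure the power or error rate of the real comparison.

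The batch number was used to pair the libraries, since the labels mark it as a batch and both times of a genotype carry it. Across genes, deviations from group means correlated at -0.40 to 0.86 for libraries with the same number and at -0.76 to 0.62 for different numbers. For 4 of 12 libraries the best match carried their own number in every one of the other groups, and a library that missed in any group was not counted. These values do not show that libraries of the same genotype and number came from 1 animal. No 2 libraries agreed within sampling noise.

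The 9 genes and the lists were chosen with earlier results of these data known. The rule named the 9 genes, Jmjd1c, up to 4 further genes of each list with the smallest p in WT at 2 h and up to 2 between KO and WT, and the 3 genes most like each member. Some genes that the rule names or the list counts include are not reported here. Alternatives were RLE factors, no filter, at least 1 CPM in 6 libraries, DESeq2 1.42.0, only the groups compared, the batch or animal as a block, no Rn45s, no 2 h libraries of batch 1, and each library left out. DESeq2 with the batch block, and list counts without libraries or with the block, were added after seeing the data. Exon lengths are from GENCODE M21 and positions and promoters from RefSeq, both on GRCm38, and all 9 symbols matched.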

Additional observations from a re-analysis of the deposited data

How the results depend on the processing

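The 9 genes had no call between KO and WT, or in the interaction, under any alternative run. Over all genes, DESeq2 called 1 gene at 0 h and 2 at 2 h between genotypes, and with the batch as a block 4 and 19. The fit of only the KO libraries called 1735 genes with time in KO, against 3316, and the other alternatives on time stayed within 1.5 times of the counts except without WT 0 h replicate 1 (1499 genes in WT) or 3 (1476), or WT 2 h replicate 2 (1278) or 3 (1540). Leaving out 1 library gave 1278 to 2216 genes called in WT, with 1 to 3 of the 9 in WT and 2 to 5 in KO. With the animal as a block 2 of the 9 were called in WT, where Pik3r5 (adjusted p = 0.0543) and Akt1 were lost, and in KO Pik3ca was lost (adjusted p = 0.0598). The replicate block changed no call of the 9 genes, with Pik3c2b at -2.05 in WT and -2.26 in KO, and it called 3048 genes in WT and 3923 in KO.

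Signs turned only where the difference was not called. Pik3cd in WT was at -0.00074 with no filter, -0.015 with the replicate block, -0.011 with the animal block, -0.0098 without Rn45s and -0.017 in DESeq2 with the block. Without both 2 h libraries of batch 1, Akt2 in KO was at 0.047, KO against WT at 2 h was at 0.030 for Pik3ca and 0.00017 for Pik3c2b, and the Pik3ca interaction was at 0.018. Leaving out 1 library gave these ranges. With time they were -0.17 to 0.12 for Pik3cd in WT and -0.20 to 0.084 for Akt2 in KO. For KO against WT at 0 h they were -0.039 to 0.086 for Pik3ca, -0.11 to 0.079 for Pik3r1, -0.0023 to 0.32 for Pik3ap1, -0.087 to 0.12 for Pik3ip1, -0.11 to 0.19 for Pik3c2b, -0.098 to 0.0079 for Akt1 and -0.098 to 0.039 for Akt2. At 2 h they were -0.28 to 0.10 for Pik3r1, -0.71 to 0.033 for Pik3ap1 and -0.31 to 0.16 for Pik3ip1. For the interaction they were -0.29 to 0.097 for Pik3r1, -0.36 to 0.0014 for Pik3r5 and -0.34 to 0.13 for Pik3ip1. The cause of these shifts was not tested. Scaling by RLE or without Rn45s moved the median of all genes by under 0.1 on the log2 scale.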
